A study of Arabidopsis thaliana with 24 samples.

Results

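In Arabidopsis leaves sprayed with the auxinic herbicide 2,4-D, 57 of 22746 measured probe sets were high at 1 h and back near their starting level at 72 h. The members were chosen by group means: the log2 value at 1 h was at least 1.5 above that at 0 h, and the value at 72 h lay within 0.5 of that at 0 h, in both genotypes. Of the 57 members, 21 have 1 gene in the annotation used, 1 has several genes and 35 are unnamed here and given by their probe set number. A probe set is the group of short probes that stands for a transcript on the array.

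The plants were ACX, the line acx1-2, and WT, both of accession Col-0. The acx1-2 line is a single insertion line disrupted in ACX1. This gene encodes an acyl-CoA oxidase, which carries out the first step of fatty acid beta-oxidation in peroxisomes. Each genotype had 6 arrays at 0 h, 3 at 1 h after a spray of 23 mM 2,4-D (with dimethyl sulfoxide and ethanol at 1% each), and 3 at 72 h. A replicate was a pool of leaves from 5 or more plants, grown with 16 h of light and 8 h of darkness a day. Controls received the solvents only, and the labels do not say whether the 0 h arrays are those controls, so changes against 0 h cannot be told apart from effects of solvent, spraying, time of day or leaf age. ACX1 has no probe set named in the annotation used, and its level was not analysed here.

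2,4-D is a synthetic auxin. It binds the nuclear auxin receptors, which mark Aux/IAA repressor proteins for breakdown, so that auxin-responsive genes are transcribed within minutes. High doses also switch on genes of foreign-compound detoxification, in which plants first modify a compound, then attach glucose or glutathione to it, and finally move it into the vacuole. Transcripts that are high for a short time after a stimulus and then return are a usual part of early plant stress responses.

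All 24 arrays had median log2 values between 5.95 and 6.17, and a typical standard error of a change against 0 h was 0.128. Over the members the median standard error was larger, at 0.19 for the changes at 1 h and at 72 h in both genotypes. The leaf gene RCA, which encodes Rubisco activase, read 14.12 to 14.46 on every array, and the root hair gene EXPA7 read 4.28 to 5.32. In ACX, RCA was lower at 1 h than at 0 h (-0.21, limma, adjusted p = 0.0115). EXPA7 was lower at 72 h in ACX (-0.48, limma, adjusted p = 0.00846), and neither gene was called in WT. The mean of the 2 measured guard cell markers read 8.92 to 9.05 in ACX at 0 h, against 8.19 to 8.73 in WT. At 1 h it read 8.37 to 8.63 in ACX, below the ACX 0 h range, against 8.53 to 8.76 in WT. The marker FMA fell at 1 h in ACX (-0.42, limma, adjusted p = 0.0281). The other marker, AT1G22690, was higher in ACX than in WT at 0 h (1.0, limma, adjusted p = 0.0215). At 72 h both markers fell in both genotypes, as did the trichome gene TRY, where 27.0% of all probe sets fell in each genotype (limma, adjusted p under 0.05). In these bulk leaf samples fewer cells of a type and less RNA per cell cannot be told apart, and the part of these markers in the values below was not tested. One array stood apart among the members: ACX 1 h replicate 1 gave the lowest of the 3 ACX 1 h values in 47 of 57 members (82.5%), against 31.3% of all probe sets.

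A return to within 0.5 of the 0 h level in both genotypes was the less common course among transcripts raised early. A total of 338 probe sets stood at least 1.5 above 0 h at 1 h in both genotypes. Of these, 57 (16.9%) are the members, and 211 (62.4%) were more than 0.5 above 0 h at 72 h in both genotypes. Those 211 include 126 (37.3% of the 338) that were still at least 1.5 above 0 h at 72 h in both. Another 13 (3.85%) were more than 0.5 below 0 h at 72 h in both. The 72 h condition held in ACX alone for 28 further probe sets and in WT alone for 24. The changes at 1 h and at 72 h share the 0 h arrays of their genotype, and both were used to choose the members, so they are given here as a description with no test.

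**Figure D1:**
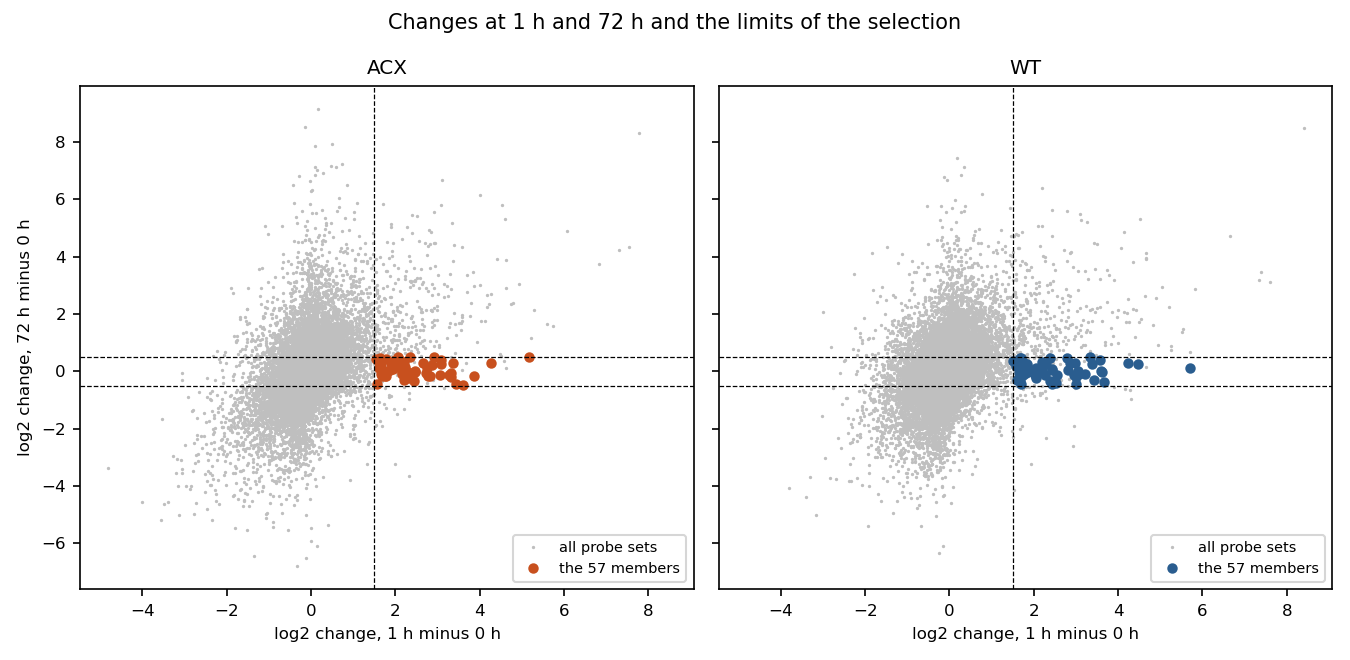
Change at 1 h (horizontal axis) against change at 72 h (vertical axis), both as log2 differences of group means against 0 h, in ACX (left) and WT (right). Grey points are all 22746 probe sets, coloured points the 57 members, and dashed lines the limits of 1.5 and 0.5 that chose them. Many grey points to the right of the vertical line lie above the members.

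The members' change at 1 h had a median of 2.20 in ACX (1.54 to 5.18) and 2.27 in WT (1.52 to 5.70), where the median over all probe sets was -0.02 in both. At 72 h the median was 0.13 in ACX and 0.02 in WT, against -0.06 over all probe sets in both. The increase at 1 h was at least 4-fold in both genotypes for 32 members and at least 8-fold for 9. Every 1 h array lay above every 0 h and 72 h array of its genotype in both genotypes for 56 of 57 members, against 2.56% of all probe sets, a count that the choice of members largely fixes. The exception was 253207_at in WT, where 0 h replicate 3 read 7.10 and the 1 h arrays 6.88, 7.29 and 7.31.

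Members just inside the limits were close to probe sets just outside. At the lower limit at 1 h, 247445_at (1.52), 246314_at (1.57) and 248550_at (1.60) stood inside in WT, and AT2G14520 (1.49), 248029_at (1.47) and AT5G24570 (1.45) stood outside. In ACX, AT3G09000 (1.54), 265572_at (1.57) and 245336_at (1.60) were inside, and 254579_at (just under the limit of 1.5), AT3G26670 (1.48) and 259593_at (1.44) were outside. At the limit at 72 h in WT, AT1G12320 (0.48), 251090_at (-0.46) and 265572_at (-0.46) were inside, and AT2G21640 (-0.52), AT3G19240 (-0.52) and 247704_at (0.55) were outside. At the limit at 72 h in ACX, 257978_at (0.50), 252970_at (0.49) and 245173_at (-0.49) were inside, and 245487_at (0.50 when rounded), AT3G04010 (0.52) and AT4G24160 (-0.54) were outside.

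The largest change belonged to AT2G41730, a gene to which no role is given here. Its log2 value at 0 h had a lowest, median and highest reading of 6.22, 7.02 and 7.52 in ACX, and of 6.37, 6.52 and 7.25 in WT. At 1 h it read 11.53, 12.33 and 12.45 in ACX and 12.57, 12.18 and 12.22 in WT. At 72 h it read 8.48, 7.40 and 6.36 in ACX and 6.55, 7.36 and 6.27 in WT. The 1 h arrays were far above all others, a change of 36.2-fold in ACX and 52.0-fold in WT, and at 72 h ACX replicate 1 and WT replicate 2 were above every 0 h array of their genotype. The mean 72 h change of AT2G41730 was 0.49 in ACX, close to the limit of 0.5, and 0.10 in WT. The gene was kept as a member in 23 of 30 alternative settings. The name of its probe set ends in x_at, which marks probes that can also bind other transcripts.

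Genes of detoxification and redox chemistry among the named members were AT3G44190, UGT73B1 and AT5G16960. AT3G44190 encodes an oxidoreductase of the FAD and NAD(P)-binding family. It read 8.33, 8.63 and 8.95 (lowest, median, highest) in ACX at 0 h, against 8.30, 8.46 and 8.71 in WT. At 1 h the values were 11.21, 12.30 and 12.22 in ACX and 12.09, 12.24 and 12.01 in WT, or 9.71-fold and 12.3-fold over 0 h. At 72 h they were 8.67, 8.38 and 8.43 in ACX and 8.64, 8.58 and 8.11 in WT, overlapping the 0 h arrays in both genotypes.

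UGT73B1 encodes a glycosyltransferase, a class of enzyme that attaches sugar to small molecules. It read 5.65, 6.48 and 6.61 (lowest, median, highest) in ACX at 0 h, against 6.05, 6.45 and 6.66 in WT. The 1 h values were 9.22, 8.98 and 9.55 in ACX and 9.17, 9.26 and 9.35 in WT, increases of 7.57-fold and 7.25-fold. At 72 h ACX had 7.06, 7.03 and 6.33 and WT had 6.84, 6.62 and 6.64, so that some arrays of each genotype were a little above the 0 h range. The mean 72 h change was 0.48 in ACX, close to the limit of 0.5, and 0.29 in WT. UGT73B1 was kept as a member in 23 of 30 alternative settings.

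Relatives of UGT73B1 in the same glycosyltransferase family were looked up after the annotation of the members was seen. Of 6 other UGT73 genes with a probe set of their own, 4 rose in ACX at 1 h, against 3 in WT, where 10.9% and 11.0% of all probe sets rose (limma, adjusted p under 0.05). At 72 h, 4 of the 6 were higher than at 0 h in both genotypes, against 26.3% of all probe sets in ACX and 26.4% in WT. UGT73B5 had changes of 4.94 in ACX and 5.82 in WT at 1 h, and of 3.05 (adjusted p = 3.77e-08) and 2.86 (adjusted p = 1.07e-07) at 72 h. UGT73C1 had 5.28 and 5.25 at 1 h, and 2.13 (adjusted p = 2.46e-07) and 0.73 (adjusted p = 0.0192) at 72 h. For UGT73B4 the changes were 3.57 and 3.84 at 1 h, and 1.89 and 0.94 at 72 h. UGT73D1 rose at 72 h by 1.39 in ACX and 2.00 in WT and was not called at 1 h. The other 2, UGT73C7 (0.02 in ACX and 0.00 in WT) and UGT73C2 (-0.00 and -0.20), were not called at 72 h. UGT73B1 itself was held within 0.5 at 72 h by the choice of members, yet lay above 0 h in both genotypes (0.48 in ACX and 0.29 in WT). The difference between UGT73B1 and its relatives was not tested.

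AT5G16960 belongs to the zinc-binding dehydrogenase family that includes alkenal reductase, an enzyme that reduces reactive carbonyls formed from oxidised lipids. It read 4.68, 4.83 and 4.97 (lowest, median, highest) in ACX at 0 h, against 4.70, 4.89 and 5.21 in WT. At 1 h it read 7.11, 8.14 and 7.84 in ACX and 7.62, 8.26 and 7.81 in WT, 7.34-fold and 7.79-fold over 0 h. By 72 h the values were 5.07, 4.85 and 5.20 in ACX and 4.75, 4.80 and 4.88 in WT. WT lay within its 0 h range again, and 2 of the 3 ACX arrays lay just above theirs.

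AT5G16960 neighbours AER, the alkenal reductase gene, and AT5G16980 on the chromosome, in the gene order of the RefSeq table of assembly TAIR10.1. AER rose by 3.55 in ACX and 3.33 in WT at 1 h and was still up by 1.43 (adjusted p = 2.28e-08) and 0.62 (adjusted p = 0.000926) at 72 h. AT5G16980 rose by 3.85 and 3.16 at 1 h and was up by 3.46 and 1.78 at 72 h. The member 246465_at stands for several genes of this group and had changes of 2.21 in ACX and 2.19 in WT at 1 h, and of 0.17 and 0.02 at 72 h. Genes of this cluster are close copies, so the split of signal between their probe sets is uncertain.

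**Figure D2:**
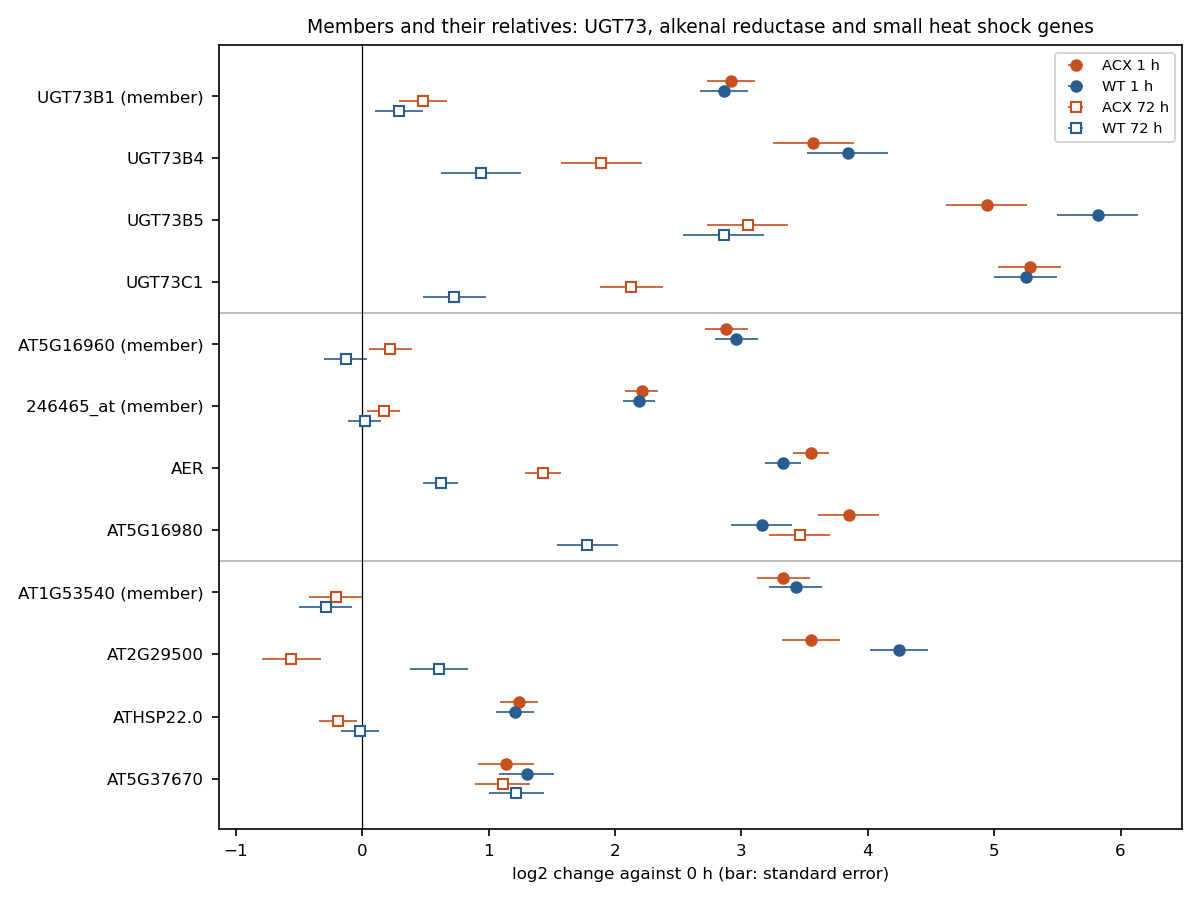
Log2 change against 0 h (horizontal axis) of 4 members and 8 related genes that are not members, at 1 h (filled circles) and 72 h (open squares) in ACX and WT, with standard errors. The top block holds UGT73 genes, the middle block the alkenal reductase group and the bottom block small heat shock genes. Of the UGT73 relatives, only those that rose at 1 h in both genotypes are drawn. UGT73C2, UGT73C7 and UGT73D1 are left out. All genes drawn lie right of 0 at 1 h, and UGT73B5 and AT5G16980 are also far right of 0 at 72 h.

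Protein folding and breakdown was represented by a pair of named members. AT1G53540 encodes a cytosolic small heat shock protein, a chaperone that binds unfolding proteins. It had 7.58, 7.91 and 8.46 in ACX at 1 h, against 8.04, 8.11 and 8.18 in WT, log2 changes of 3.33 and 3.43. At 72 h it had 4.46, 4.51 and 4.36 in ACX and 4.34, 4.31 and 4.51 in WT.

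The 0 h arrays of AT1G53540 fell into opposite blocks in the genotypes. In ACX replicates 1 to 3 read 4.31, 4.62 and 4.26 and replicates 4 to 6 read 4.87, 4.93 and 4.95, whereas in WT replicates 1 to 3 read 4.86, 4.89 and 5.30 and replicates 4 to 6 read 4.27, 4.31 and 4.47. The unnamed member 245173_at had the same arrangement: 4.49, 4.21 and 4.27, then 5.13, 5.30 and 5.04 in ACX, and 5.05, 5.22 and 5.11, then 4.53, 4.47 and 4.35 in WT. The difference ACX minus WT at 0 h therefore took opposite signs by block. For AT1G53540 it was -0.62 (adjusted p = 0.0357) when the first block alone stood for 0 h, and 0.57 (adjusted p = 0.019) when the second did. Over all arrays it was -0.02. For 245173_at it was -0.81 (adjusted p = 0.0355) and 0.70 (adjusted p = 0.0433), and -0.05 over all. Further members split by block too, and they were not counted. In 266590_at the arrangement was the same, and in 267280_at and 256453_at it was reversed. For 267280_at the ACX arrays read 5.52, 5.50 and 5.29, then 5.05, 4.86 and 5.18. Its WT arrays read 4.96, 5.01 and 4.97, then 5.36, 5.32 and 5.33. What the blocks are is not given in the labels, and the cause was not tested. In AT1G53540 and 245173_at all 1 h arrays lay above both blocks.

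Other small heat shock genes came from a list of 17 heat shock genes, of which 3 have a named probe set. That list was chosen with earlier results of these data known. All 3 rose at 1 h in both genotypes, where 10.9% of all probe sets rose in ACX and 11.0% in WT. AT2G29500 rose by 3.55 in ACX and 4.25 in WT, ATHSP22.0 by 1.24 and 1.21, and AT5G37670 by 1.14 and 1.30. At 72 h AT2G29500 was 0.56 below 0 h in ACX (log2 change -0.56, adjusted p = 0.0456) and 0.61 above it in WT (adjusted p = 0.0296), AT5G37670 was still up by 1.11 and 1.22, and ATHSP22.0 had changes of -0.19 and -0.02 that were not called. AT4G15420, the other member of this group, encodes a protein of the UFD1 family, which acts in the delivery of ubiquitin-tagged proteins for breakdown. It had 9.52, 9.94 and 9.79 in ACX at 1 h, against 9.52, 9.90 and 9.63 in WT, 4.18-fold and 3.52-fold over 0 h.

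Transport and primary metabolism were represented by AT1G79710 and AT4G17260. AT1G79710 encodes a membrane carrier of the folate-biopterin transporter family and read 9.21, 9.96 and 9.78 in ACX at 1 h, against 9.64, 9.56 and 9.12 in WT. Its 0 h medians were 6.20 in ACX and 6.22 in WT, and its log2 change was 3.33 and 3.21. AT4G17260 encodes lactate dehydrogenase, the enzyme that makes lactate in fermentation. It had 7.71, 8.61 and 8.97 in ACX at 1 h, against 8.62, 7.68 and 8.39 in WT, 3.08-fold and 3.14-fold, with wide 0 h ranges of 6.41 to 7.41 in ACX and 5.54 to 7.36 in WT. AT5G27760, of a family named for its response to low oxygen, was 3.45-fold over 0 h in ACX and 4.42-fold in WT.

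RNA-linked and repeat proteins made up a further group. AT1G74750 encodes a pentatricopeptide repeat protein, a class that binds RNA in organelles. It had 7.23, 8.11 and 7.93 in ACX at 1 h, against 8.32, 8.21 and 7.83 in WT, 4.60-fold and 5.78-fold over 0 h. AT1G10580 encodes a WD40 repeat protein like the splicing factor PRP17 of yeast and was 3.42-fold over 0 h in ACX and 3.46-fold in WT. AT5G51980, another WD40 repeat protein gene, was 4.58-fold and 4.91-fold over 0 h. The gene next to AT1G10580, AT1G10585, is not a member: it rose by 6.84 in ACX and 7.38 in WT at 1 h and was still up by 3.74 and 3.45 at 72 h.

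Among the other members with a gene, AT5G14730 and AT1G28760 are given no role here. AT5G14730 had 8.75, 9.52 and 9.84 in ACX at 1 h, against 9.39, 9.64 and 9.49 in WT, 14.5-fold and 22.2-fold over 0 h, where the medians were 5.41 and 5.06. AT1G28760 had 7.70, 8.64 and 8.46 in ACX and 8.77, 8.91 and 8.54 in WT, 4.45-fold and 5.87-fold. AT1G69680, of the Mog1/PsbP-like family, had 9.90, 10.74 and 11.08 in ACX and 10.40, 10.65 and 10.71 in WT, 8.49-fold and 7.97-fold. AT3G27880 was 3.16-fold and 3.25-fold over 0 h, and AT3G09000, which encodes a proline-rich protein, had log2 changes of 1.54 and 1.68. Among the members with no gene named, 267280_at had the largest change, with 8.77, 9.77 and 9.97 in ACX at 1 h, against 9.04, 9.79 and 9.30 in WT, 19.3-fold and 18.7-fold over 0 h. It was picked after its values were seen. Its 0 h arrays read at most 5.52 in ACX and 5.36 in WT, far below the 1 h arrays.

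AT1G12320, a protein gene of a family with no known function, and AT3G16330, related to genes that are quickly induced in pathogen recognition, spread widely among the ACX 1 h arrays. AT1G12320 read 6.35, 8.12 and 8.83 in ACX and 8.59, 8.38 and 7.60 in WT, 6.75-fold and 10.1-fold over 0 h. AT3G16330 read 6.99, 8.52 and 9.17 in ACX and 7.56, 7.70 and 7.33 in WT, 8.41-fold and 5.36-fold. Without ACX 1 h replicate 1 the log2 change in ACX was 3.46 for AT1G12320, against 2.75 with it, and 3.69 for AT3G16330, against 3.07. Another member moved over 1.5-fold in this way, 248486_at, with 3.51 without that array and 2.78 with it.

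**Figure D3:**
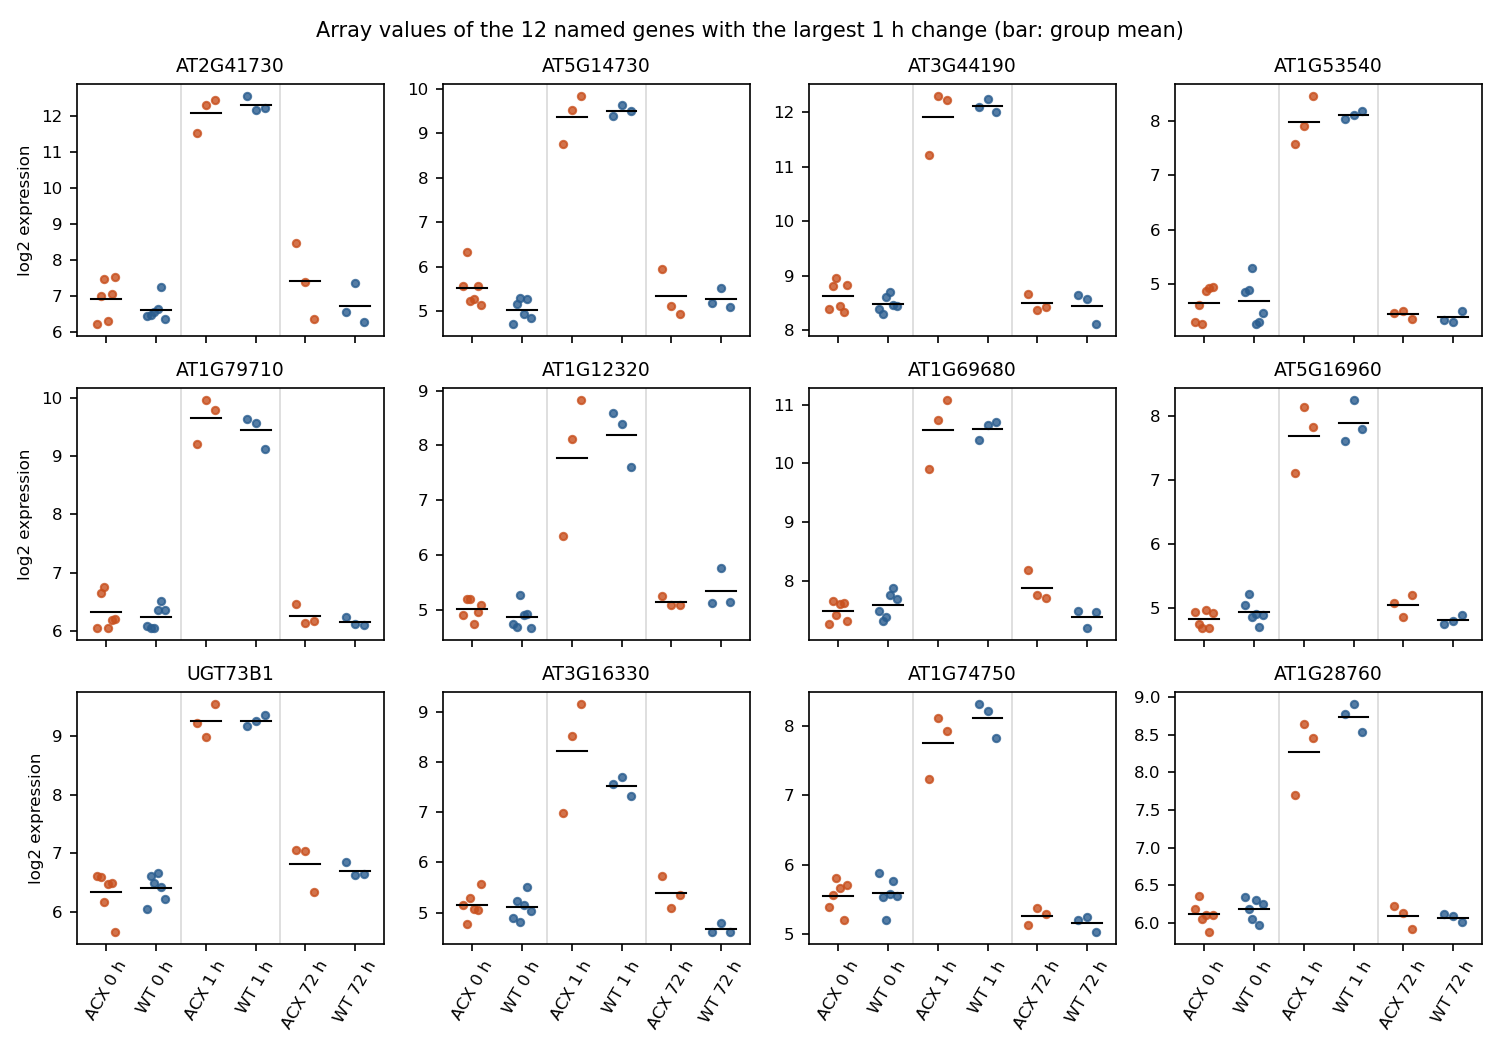
Log2 expression on every array (points) of the 12 members with 1 gene and the largest mean change at 1 h, with ACX and WT side by side at 0, 1 and 72 h. Horizontal bars are group means. In every panel the 1 h arrays of both genotypes lie above the 0 h and 72 h arrays.

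A mitochondrial gene and a gene of a cell wall family were also members. nad6 encodes a subunit of respiratory complex I in the mitochondrial genome and had 5.85, 7.31 and 7.67 in ACX at 1 h, against 7.72, 7.39 and 6.70 in WT, 3.70-fold and 4.61-fold over 0 h. Over 21 other probe sets of mitochondrial genome genes the 1 h changes spanned -0.52 to 0.59 in ACX and -0.50 to 0.40 in WT. In ACX 2 rose, and in WT 1 rose and 2 fell. Of all probe sets, 10.9% rose in ACX and 11.0% in WT, and 12.7% and 15.6% fell. Several of the 21 stand for the same gene, nad1, and those that rose were all probe sets of nad5. The nad6 probe set has a name ending in s_at, which marks probes shared by several transcripts, so its signal may not be that of nad6 alone. TBL37 belongs to the TRICHOME BIREFRINGENCE-LIKE family, whose members acetylate cell wall polysaccharides. It had 10.15, 10.35 and 10.41 in ACX at 1 h, against 10.19, 10.29 and 10.25 in WT, 5.00-fold and 4.06-fold over 0 h. Of 21 other TBL probe sets, 1 rose and 4 fell at 1 h in ACX, and none rose and 5 fell in WT, where 12.7% of all probe sets fell in ACX and 15.6% in WT. Differences between these members and their relatives were not tested.

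No gene of the response lists used here that has a named probe set is a member. Most list genes have no named probe set, so whether any of the 35 unnamed members stands for a list gene was not determined. The lists were chosen with earlier results of these data known, so their counts are a description only. The early auxin list had 9 of 27 genes measured. Of these, 6 rose at 1 h in both genotypes, where 10.9% of all probe sets rose in ACX and 11.0% in WT, and all 9 rose at 72 h in both, where 26.3% and 26.4% of all probe sets rose, with median changes at 72 h of 3.72 in ACX and 3.06 in WT. GH3.3, whose product joins auxin to amino acids, had changes of 7.78 in ACX and 8.41 in WT at 1 h and of 8.32 and 8.50 at 72 h. The detoxification list had 7 of 28 measured, and all 7 rose at 1 h in both genotypes (10.9% and 11.0% of all probe sets), with a median of 3.55 in ACX and 3.35 in WT. At 72 h, 6 of the 7 were higher than at 0 h in each genotype (26.3% and 26.4% of all probe sets), with a median of 1.64 in ACX and 0.76 in WT. The gene not called was AT2G04070 in ACX (0.08, adjusted p = 0.746) and GSTU25 in WT (0.22, adjusted p = 0.72), so 5 were called in both. Of 8 measured genes of 22 in the reactive oxygen and wound list, 7 fell at 1 h in ACX, and 1 rose and 3 fell in WT, where 12.7% of all probe sets fell in ACX and 15.6% in WT. The mitochondrial dysfunction list had 2 of 10 measured, and both rose at 1 h: AT2G21640, by 2.04 and 2.20, just missed membership with a 72 h change of -0.52 in WT.

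The comparison of ACX with WT at a given time was not itself used to choose the members and was tested. It rests on the same arrays as that choice, so the test is not fully independent of it. At 0 h, 2 of 57 members were called, both higher in ACX, where 7.35% of all probe sets were called in either direction and 3.46% higher (limma, adjusted p under 0.05). The unnamed member 259875_s_at read 10.36, 11.10, 11.78, 10.52, 11.03 and 11.54 in ACX replicates 1 to 6 and 9.48, 9.33, 10.31, 10.08, 10.06 and 9.99 in WT. Every ACX array was above every WT array, by 1.18 on average (SE 0.23, adjusted p = 0.00318). The name of this probe set ends in s_at, so its signal may come from several transcripts. At 1 h the genotypes overlapped, with 13.24, 13.48 and 13.76 in ACX and 13.56, 13.47 and 13.28 in WT (difference 0.06, SE 0.33). Its change against 0 h was 5.42-fold in ACX and 11.8-fold in WT.

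The second was 267142_at, which read 7.74, 8.37, 8.64, 7.63, 8.13 and 8.83 in ACX replicates 1 to 6 and 7.67, 7.79, 7.64, 7.64, 7.32 and 7.51 in WT, a difference of 0.63 (adjusted p = 0.0282). Leaving out a single 0 h array ended its call in 5 cases (ACX: 2, 3 and 6; WT: 5 and 6), with differences of 0.51 to 0.61. Without ACX 0 h replicates 3 and 6 together the difference was 0.37 (adjusted p = 0.198). In both members ACX replicates 1 and 4, 2 and 5, and 3 and 6 had similar values. Over all probe sets, deviations of such pairs of 0 h arrays from their group mean correlated at r of -0.162 to 0.463 in ACX (median 0.421, 3 pairs). In WT they correlated at -0.696 to -0.05 (median -0.637, 3 pairs), so the WT arrays do not share this arrangement. Pairs within replicates 1 to 3 or within 4 to 6 had a median r of 0.247 in WT and -0.0784 in ACX (6 pairs each). The 0 h arrays of a genotype may thus not all be independent, which was not tested. With 0 h replicates n and n + 3 of a genotype averaged, a setting chosen after these values were seen, the differences were the same and neither was called (adjusted p = 0.0561 and 0.193).

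At 1 h no member was called between the genotypes, where 8 of all probe sets (0.0352%) were. At an unadjusted p under 0.05, 4 members (7.02%) and 4.58% of all probe sets differed. The largest was 247445_at, with 9.39, 9.67 and 9.98 in ACX and 8.72, 8.99 and 8.89 in WT, groups that did not overlap (difference 0.81, SE 0.17, adjusted p = 0.13). It was called with array weights (0.78, adjusted p = 0.0109) and with the averaged 0 h arrays (0.81, adjusted p = 0.0353). 259331_at had 6.87, 6.71 and 6.63 in ACX and 7.37, 7.68 and 7.13 in WT, again with no overlap (-0.65, adjusted p = 0.41), and was called with array weights (-0.70, adjusted p = 0.0447). The other 2 were 259332_at (-0.56, adjusted p = 0.41, and -0.76 with 0.00702 under array weights) and AT1G28760 (-0.47, adjusted p = 0.829). Without ACX 1 h replicate 1, AT3G16330 was called (1.31, adjusted p = 0.0372). Over all members the median difference was -0.02, against -0.01 over all probe sets.

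At 72 h no member was called either, where 2.79% of all probe sets were. At an unadjusted p under 0.05, 4 members (7.02%) and 13.5% of all probe sets differed. The choice of members keeps the 72 h difference within 1.0 of the 0 h difference, which limits how far the genotypes could part. The median difference was 0.11, and 42 of 57 members lay above 0, against 49.1% of all probe sets. AT3G16330 had 5.74, 5.10 and 5.36 in ACX and 4.62, 4.79 and 4.61 in WT, with no overlap (0.72, adjusted p = 0.341), and AT1G69680 had 8.19, 7.77 and 7.71 in ACX and 7.50, 7.20 and 7.47 in WT (0.50, adjusted p = 0.279). The other 2 were TBL37 (-0.35, adjusted p = 0.228) and 246153_s_at (0.35, adjusted p = 0.321).

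**Figure D4:**
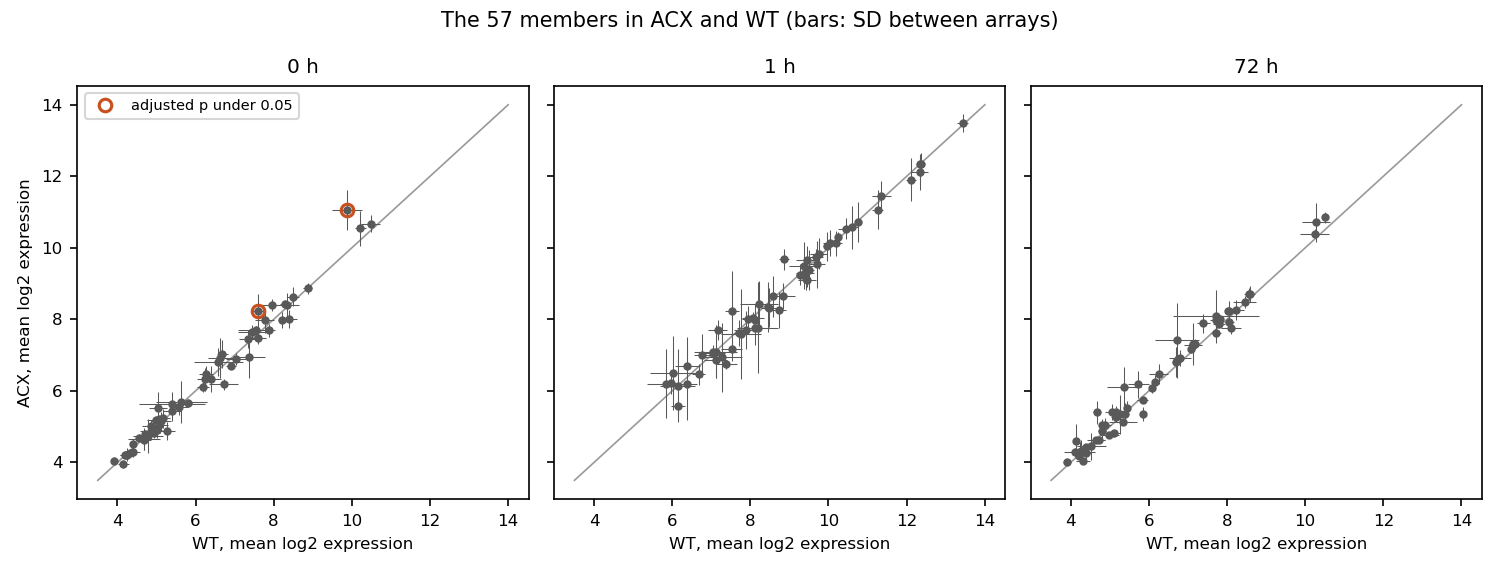
Mean log2 expression of the 57 members in ACX (vertical axis) against WT (horizontal axis) at 0, 1 and 72 h, with SD between arrays as bars and the line of equal level. Orange rings mark the 2 members called at 0 h, and both lie above the line.

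The size of the 1 h change in each genotype was part of the choice of members and is given without a test. It was larger in ACX for 25 members and in WT for 32, and differed by more than 0.5 for 9. The widest gap was that of 259875_s_at, whose 0 h level differed as described. Averaged over the 57 members, the 1 h arrays read 8.23, 8.84 and 9.05 in ACX (SD 0.43) and 8.72, 8.84 and 8.65 in WT (SD 0.10). The spread in ACX was thus the wider, and ACX replicate 1 was the low array. Without it the median 1 h change in ACX was 2.40. The same array was lowest in 108 of the 126 probe sets that were still raised at 72 h (85.7%). Over the members the 0 h arrays averaged 6.21 to 6.40 in ACX and 6.19 to 6.29 in WT.

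**Figure D5:**
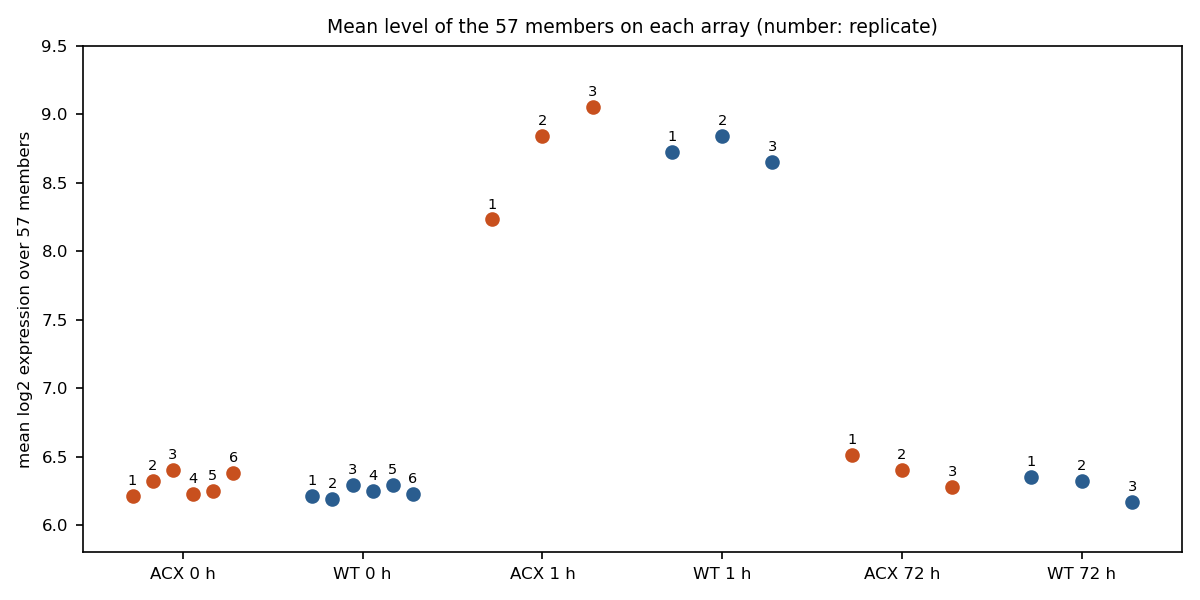
Mean log2 expression over the 57 members (vertical axis) on each of the 24 arrays, by time and genotype, with the replicate number above each point. ACX 1 h replicate 1 (8.23) lies below the other 5 arrays at 1 h, and all 1 h arrays lie above all 0 h and 72 h arrays.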

How the data were processed

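Leaf transcripts were measured on 24 Affymetrix ATH1 arrays. The deposited values are log2 expression per probe set, which the authors made with RMA; the submitters' processing notes list RMA and limma. RMA's settings are not stated there. Of 22810 probe sets, 64 Affymetrix controls were left out and 22746 were tested, with no further scaling and no filter. The number of arrays limits the precision.

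Groups came from the sample titles. A linear model with a mean for every group was fitted over the 24 arrays in limma 3.58.1 (R 4.3.3), with empirical Bayes moderation (residual degrees of freedom 18, prior 3.23). P-values are two-sided and Benjamini-Hochberg adjusted over all 22746 probe sets of a comparison, with a threshold of 0.05. "Rose", "fell" and "called" refer to this test. Folds are 2 to the power of the log2 difference of group means. The fit was tested on simulated data.

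Gene names came from the platform annotation: 1 gene was given for 13513 tested probe sets and several for 503, and the other 8730 are unnamed here, and 13436 of those with 1 gene matched the RefSeq table of assembly TAIR10.1. The members and gene lists were chosen with earlier results of these data known. Gene families were chosen after the members' annotation was seen. Named members are the 12 with 1 gene and the largest 1 h change, those called between genotypes, those next to a limit of the choice and those with an outlying array; others were named after their values were seen. Roles are textbook background. Promoter motifs and roles by keyword were not analysed here.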

Additional observations from a re-analysis of the deposited data

Results flagged for a closer look

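Of 114 tests for an outlying array among the 6 arrays of a 0 h group, 9 found an array far from the others by Dixon's test, and chance alone gives about 1 in 20. In ACX at 0 h, AT5G14730 had a high replicate 2 at 6.34, where the next array read 5.56. 266269_at had a low replicate 2 at 4.01 (next 4.22), 247691_at a low replicate 3 at 5.04 (next 5.20), and 250296_at a high replicate 6 at 5.30 (next 5.20). In WT at 0 h, AT2G41730 had a high replicate 5 at 7.25 (next 6.64) and 259331_at a low replicate 4 at 4.03 (next 4.31).

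WT 0 h replicate 3 was the outlying array in 3 members. It was high in 253207_at at 7.10 (next 5.30) and in 259790_s_at at 8.12 (next 7.46), and low in nad6 at 4.61 (next 5.04). These arrays were kept in the values given above.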

How the results depend on the processing

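The count of 57 members ranged between 47 and 66 over 7 alternatives (scaling, group medians, subsets of the 0 h arrays, a filter on low values) and between 49 and 61 when 1 array was left out. Of the 57, 27 were kept in all 30 of these settings other than the filter. The filter on low values kept 55 of the 57. The count of 2 members called between genotypes at 0 h was 6 with 0 h replicates 1 to 3 only, 1 with only the groups compared, 1 without ACX 0 h replicates 3 and 6, and 0 with 0 h replicates n and n + 3 averaged, a setting chosen after seeing the data. It was 1 to 5 when 1 array was left out: 1 without WT 0 h replicate 6 and 1 without any of ACX 0 h replicates 2, 3 and 6, 4 without WT 0 h replicate 3 and 5 without ACX 1 h replicate 1. The higher level of 259875_s_at was called in all other settings (0.88 to 1.37, adjusted p = 0.00142 to 0.0234) but not with averaging (adjusted p = 0.0561). 267142_at lost its call in 5 fits that left out 1 array (adjusted p = 0.0556 to 0.0765) and in 5 other settings (adjusted p = 0.0567 to 0.198). At 1 h the count of 0 became 3 with array weights, 1 with averaging and 0 to 1 when 1 array was left out. At 72 h it was 0 throughout. The labels do not say that replicate numbers mark a shared source. Same-numbered arrays of different groups correlated at r of -0.509 to 0.356 in their deviations from group means (median -0.00736), and differently numbered ones at -0.421 to 0.446 (median 0.00492). With replicate number as a block the count was 2 at 0 h, 1 at 1 h (247445_at, adjusted p = 0.0195) and 0 at 72 h. The cause of these shifts was not tested.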
